A study of Mus musculus with 18 samples.

Results

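H19 and 6 other imprinted genes that act on growth, Igf2, Meg3, Peg3, Cdkn1c, Grb10 and Mest, were followed in the hearts of mice given isoproterenol (ISO), a beta-adrenergic agonist that stresses the heart, with or without polystyrene (PS) particles. They are 7 of 35560 genes joined over the count tables of both sequencing providers and of 14623 genes with enough counts to be tested, and all 7 were among the tested genes. The set was chosen by name, after the measured level of H19 had been seen to be higher with 100 nm than with 1 µm PS, so H19 is described here without a test in any comparison or correlation, and between the particle sizes the 7 genes are described only. All 18 mice were male, wild-type C57BL/6, and all received ISO under the skin at 2.5 mg/kg/day for 21 days. The control group (ISO, n = 6) had water by gavage, and the other groups had 50 mg/kg/day of PS by gavage, as particles of 100 nm (n = 6) or of 1 µm (n = 6). There was no group without ISO, so no level can be set against an unstressed heart.

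Imprinted genes are read from only 1 of the parental copies, as set by DNA methylation laid down on 1 copy in the germ line. Many of them set fetal growth, with paternally expressed genes tending to promote it and maternally expressed genes tending to restrain it, and most are turned down in organs after birth. H19, a maternally expressed long noncoding RNA, and Igf2, a paternally expressed growth factor of the insulin family, are neighbours that share enhancers and a methylated control region. Meg3 is a maternally expressed long noncoding RNA of the Dlk1-Dio3 cluster, and Peg3 a paternally expressed zinc finger protein. Cdkn1c encodes p57, an inhibitor of cyclin-dependent kinases, Grb10 an adaptor that damps insulin and IGF receptor signalling, and Mest a paternally expressed membrane protein of the hydrolase family.

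H19 is also the precursor of miR-675, and introns of Igf2 and Mest hold miR-483 and miR-335. The mature sequences below (RefSeq, GRCm38.p6) are given since the host transcripts are what the libraries counted. The seed, bases 2 to 8, is in capitals, and no 2 of the 6 seeds are the same.
miR-675-5p (H19, chr7:142577112-142577133, minus strand): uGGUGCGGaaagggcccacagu
miR-675-3p (H19, chr7:142577078-142577099, minus strand): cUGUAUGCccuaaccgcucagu
miR-483-5p (Igf2, chr7:142654968-142654989, minus strand): aAGACGGGagaagagaagggag
miR-483-3p (Igf2, chr7:142654932-142654952, minus strand): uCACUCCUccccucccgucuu
miR-335-5p (Mest, chr6:30741314-30741336, plus strand): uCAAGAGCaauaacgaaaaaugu
miR-335-3p (Mest, chr6:30741354-30741375, plus strand): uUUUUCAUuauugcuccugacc
The entries of the precursors of miR-675 and miR-483 had a count of 0 in all 18 libraries. Both overlap their host genes, and how reads there were assigned is not known, so the 0 sets no bound on their level. Poly(A) libraries also do not measure mature microRNAs.

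Promoter sequences, 250 bases before to 50 after a start site, were found in RefSeq for 5 of the 7 genes, in 12 entries. Promoters of 3 of them are shown because Igf2 and Meg3 had the highest members' fold changes after H19 at 100 nm and because Mest holds the motif more than once. The motif searched was TGCCGC on both strands (GCGGCA on the other), the letters that ZFP57, a protein that keeps imprinting marks, reads when methylated; matches are in capitals.
Igf2 (GRCm38.p6, chr7:142661222-142661521, minus strand): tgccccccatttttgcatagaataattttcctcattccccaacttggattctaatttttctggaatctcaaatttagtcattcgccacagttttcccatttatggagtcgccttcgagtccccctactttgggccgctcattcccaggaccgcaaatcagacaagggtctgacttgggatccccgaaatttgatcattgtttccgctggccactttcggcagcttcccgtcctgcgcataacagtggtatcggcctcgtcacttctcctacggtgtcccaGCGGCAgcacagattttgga
Meg3 (GRCm38.p6, chr12:109540746-109541045, plus strand): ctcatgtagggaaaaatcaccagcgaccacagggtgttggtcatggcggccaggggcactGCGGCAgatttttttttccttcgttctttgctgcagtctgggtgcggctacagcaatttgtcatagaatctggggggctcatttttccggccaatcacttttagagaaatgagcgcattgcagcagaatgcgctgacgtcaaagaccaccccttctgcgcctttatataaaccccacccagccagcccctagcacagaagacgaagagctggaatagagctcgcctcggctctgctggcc
Mest (GRCm38.p6, chr6:30737800-30738099, plus strand): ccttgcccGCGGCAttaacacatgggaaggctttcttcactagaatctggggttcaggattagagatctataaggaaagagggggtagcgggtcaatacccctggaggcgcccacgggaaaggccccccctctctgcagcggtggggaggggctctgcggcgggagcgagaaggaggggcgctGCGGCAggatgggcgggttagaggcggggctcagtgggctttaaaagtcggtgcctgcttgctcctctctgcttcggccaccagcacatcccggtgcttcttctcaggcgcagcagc
These windows hold 1, 1 and 2 matches and 14, 13 and 17 CpG dinucleotides, and were shown because they hold the motif. Of all 12 entries 5 hold it: 1 of 4 for Igf2, 1 of 2 for Meg3, 2 of 3 for Mest (overlapping windows), 1 of 2 for Grb10 and 0 of 1 for Peg3. Of 32851 RefSeq promoters of the same length 11.6% hold the motif, and their median is 7 CpG. The match describes the letters only, and methylation was not measured.

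The libraries held 14032257 to 22600570 counts each. The first provider (batch 1) handled 3 ISO, 5 100 nm and 4 1 µm libraries and the second (batch 2) 3, 1 and 2, so the 100 nm group has a single library in batch 2. The 6 ventricular myocyte markers summed to between 25574 and 97129 CPM (the count scaled by library size and TMM factor) in every library, so the defining transcripts of heart muscle were abundant. ISO replicate 2 stood apart, with 13152 genes detected where the rest of its group had 16562 to 17913, and it had the lowest level of each of the 7 genes among ISO libraries. The relation of a library's deviation from its batch mean to GC content also differed by group, with Spearman coefficients of -0.61 to 0.01 across genes in ISO and of 0.12 to 0.37 in PS libraries. ISO replicate 1 also differed, with 44.7% of its counts from mitochondrially encoded genes against 13.9% to 32.1% elsewhere. Fold changes of the 6 tested genes that moved by over 1.5 times without either library are given both ways.

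Across all 18 libraries the mean level per kb of the longest transcript was highest for Cdkn1c (27.8 CPM per kb), followed by H19 (20.2), Igf2 (13.6), Grb10 (13.1), Mest (5.4), Peg3 (1.25) and Meg3 (0.586). The gap between Igf2 and Grb10 is smaller than the spread of either gene over libraries. Meg3, detected in all libraries but 1, was the scarcest of the 7.

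**Figure D1:**
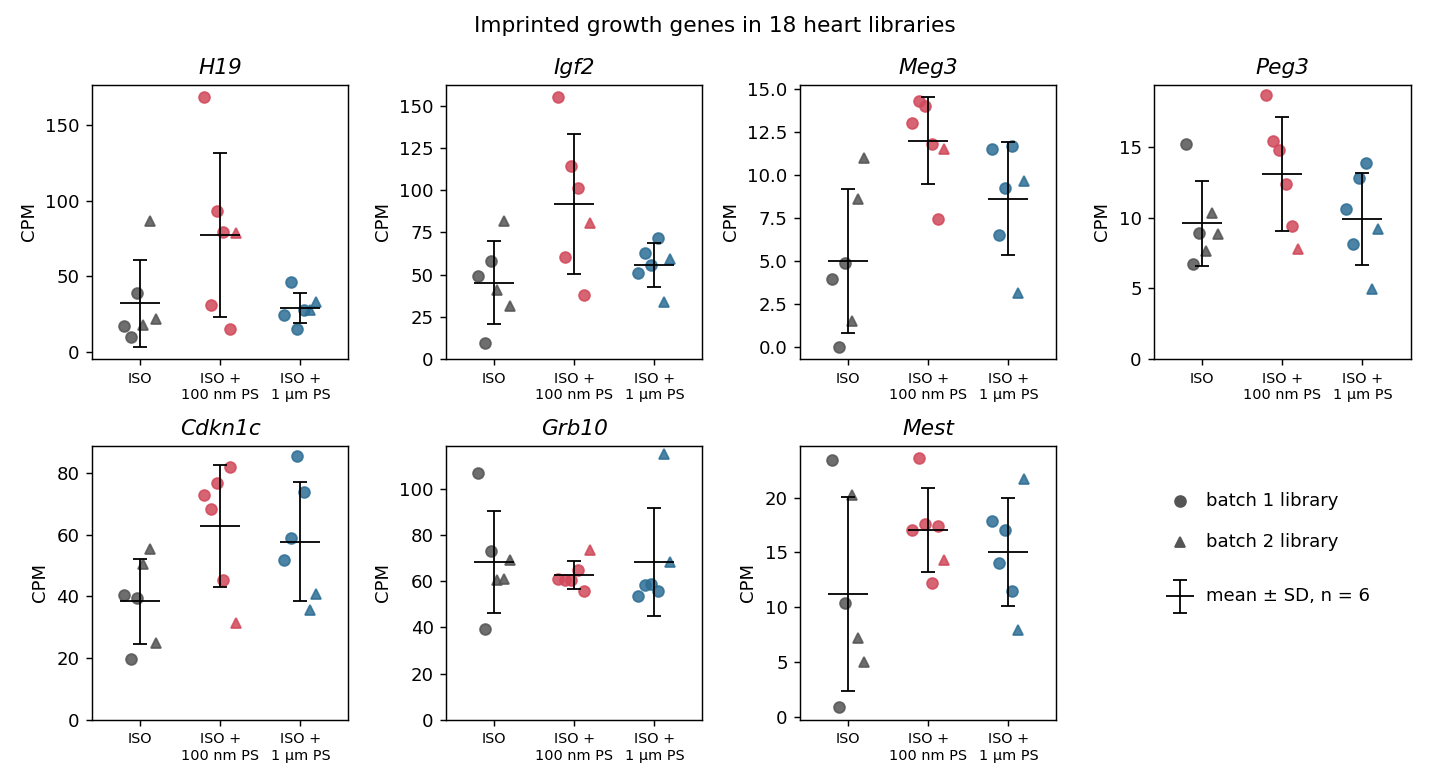
Level of each gene in CPM on a linear axis in the 3 groups, with 1 point per library (circles batch 1, triangles batch 2) and the mean ± SD of 6 libraries in black. H19 at 100 nm runs from 15 to 168 CPM, a range that holds all 6 values of the 1 µm group (15.4 to 46.1 CPM).

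H19 was highest on average in the 100 nm group. The level was 32.2 ± 28.5 CPM (SD, n = 6) with ISO alone, 77.4 ± 54 CPM with 100 nm PS and 29.1 ± 10.2 CPM with 1 µm PS. In the ISO group H19 ran from 10.1 CPM through a median of 20 to 86.7 CPM, the last in replicate 5. With 100 nm PS the lowest library had 15, the median was 78.8 and the highest had 168 CPM. With 1 µm PS the values were 15.4, 27.8 and 46.1 CPM. The groups overlapped: 4 of the 100 nm libraries (replicates 1, 3, 4 and 6) were above every 1 µm library, replicate 2 (30.8 CPM) lay within the 1 µm range, and replicate 5 (15 CPM) lay just under it.

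The fitted log2 fold change of H19 was 1.46 (SE 0.56) at 100 nm against ISO, -0.02 (SE 0.53) at 1 µm against ISO and -1.48 (SE 0.52) at 1 µm against 100 nm, the difference for which the gene was chosen. These are descriptions with no test. Leaving out 1 library at a time moved the difference between sizes between -1.74 (without 1 µm replicate 2) and -1.07 (without 100 nm replicate 1), and the value at 100 nm against ISO between 1.08 (without 100 nm replicate 1) and 1.86 (without ISO replicate 5). Without ISO replicate 2 that value was 1.19, and without ISO replicates 1 and 2 it was 0.94. The value at 1 µm against ISO was 0.35 in batch 1 alone and -0.50 in batch 2 alone, and ran from -0.25 to 0.45 with 1 library left out. Batch 1 alone gave 1.78 at 100 nm against ISO and -1.43 between sizes, and batch 2 alone, with its single 100 nm library, 0.90 and -1.40. Between the sizes, 0% of the 14623 genes passed an adjusted p of 0.05 (edgeR quasi-likelihood test, Benjamini-Hochberg), and DESeq2 called 0. In edgeR 49 genes had an unadjusted p under 0.05, and 282 of 14240 did with only the 2 PS groups fitted. Both are below the share of 0.05 that chance gives, so the lack of calls does not show that the sizes are alike.

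Igf2, the growth factor, had its highest mean at 100 nm, and the difference from ISO did not pass the test. Its mean was 45.1 ± 24.6 CPM with ISO, 91.4 ± 41.3 with 100 nm PS and 55.7 ± 12.9 with 1 µm PS (SD, n = 6 each). ISO libraries ran from 9.57 through a median of 44.9 to 82 CPM, 100 nm libraries from 37.8 through 90.7 to 155 CPM, and 1 µm libraries from 33.6 through 57.5 to 71.9 CPM. The groups overlapped, and 5 of the 6 libraries with 100 nm PS were above the mean CPM of ISO in their batch. The log2 fold change at 100 nm against ISO was 1.01 (SE 0.41, 95% interval 0.15 to 1.87, adjusted p = 0.115 by edgeR), and 0.69 (adjusted p = 0.154, edgeR) without ISO replicate 2. At 1 µm against ISO it was 0.30 (SE 0.39, adjusted p = 0.656, edgeR), and 0.01 without ISO replicate 2. The 2 comparisons share the ISO libraries.

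Meg3, the noncoding RNA of the Dlk1-Dio3 cluster, was a low-level gene with a wide range in ISO. ISO libraries ran from 0 (replicate 2, where 0 counts allow up to 0.231 CPM) through a median of 4.39 to 11 CPM. With 100 nm PS the range was 7.41 to 14.3 CPM around a median of 12.4, and with 1 µm PS 3.12 to 11.7 CPM around 9.42. The fold change at 100 nm was 1.41 (SE 0.63, 95% interval 0.08 to 2.74, adjusted p = 0.152, edgeR), with 6 of 6 libraries above the mean CPM of ISO in their batch, and 0.97 (adjusted p = 0.128) without ISO replicate 2. At 1 µm it was 0.90 (SE 0.61, adjusted p = 0.353), and 0.50 (adjusted p = 0.449) without ISO replicate 2. In batch 1 every PS library of either size was above every ISO library for Meg3 and for Cdkn1c, 2 of the 7 genes, against 9.83% (100 nm) and 11.8% (1 µm) of all tested genes. Over all libraries this held for 0 of the 7 at either size, against 1.63% and 1.12% of tested genes.

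Cdkn1c, the kinase inhibitor, had fold changes of opposite sign in the batches. Its level was 38.3 ± 13.8 CPM with ISO, 62.7 ± 19.8 with 100 nm PS and 57.7 ± 19.2 with 1 µm PS (SD, n = 6), and the fold changes were 0.53 (SE 0.30, adjusted p = 0.262, edgeR) and 0.46 (SE 0.29, adjusted p = 0.311, edgeR). Without ISO replicate 2 they were 0.26 and 0.22, and without ISO replicates 1 and 2 0.08 and 0.07. In batch 1 alone it was 1.04 at 100 nm, which passed (adjusted p = 0.0435, edgeR), and 1.02 at 1 µm (adjusted p = 0.0657). ISO libraries of batch 1 held 19.8 to 40.4 CPM, and 100 nm and 1 µm libraries there 45.4 to 81.9 and 51.9 to 85.5 CPM. In batch 2 the values were -0.46 and -0.20, with ISO libraries at 25 to 55.2 CPM, the 100 nm library at 31.5 CPM and the 1 µm libraries at 35.6 and 40.7 CPM. The batch-by-group term had an unadjusted p of 0.0156 at 100 nm and 0.0205 at 1 µm in edgeR, and 0.774 and 0.223 after adjustment over all genes. Cdkn1c has a GC content of 59.4%, and a correction of each library for GC moved its fold changes to -0.06 and -0.09, where the median of all genes moved to -0.16 and -0.10.

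Peg3, Mest and Grb10 did not pass the test at either size. Peg3 was at 9.61 ± 3.02 CPM with ISO, 13.1 ± 4.07 with 100 nm PS and 9.94 ± 3.27 with 1 µm PS, with fold changes of 0.24 (SE 0.25, adjusted p = 0.543, edgeR) and -0.07 (SE 0.24, adjusted p = 0.875, edgeR), which were 0.40 and 0.07 without ISO replicate 1 and 0.06 and -0.23 without ISO replicate 2. Mest was at 11.2 ± 8.85, 17 ± 3.86 and 15 ± 4.91 CPM, and its spread in ISO came from libraries between 0.849 CPM (replicate 2) and 23.4 CPM (replicate 1). Its fold changes were 0.57 (SE 0.49, adjusted p = 0.458, edgeR) and 0.41 (SE 0.47, adjusted p = 0.602, edgeR), and 1.10 and 0.88 without ISO replicate 1 but 0.25 and 0.13 without ISO replicate 2. Grb10 was the steadiest by group means, at 68.3 ± 22, 62.7 ± 5.96 and 68.3 ± 23.3 CPM, with fold changes of -0.06 (SE 0.21, adjusted p = 0.874, edgeR) and 0.01 (SE 0.21, adjusted p = 0.991, edgeR), which were 0.22 and 0.25 without ISO replicate 1 and -0.20 and -0.11 without ISO replicate 2. ISO replicate 1 and 1 µm replicate 5 had 107 and 115 CPM of Grb10, while the 100 nm libraries stayed between 55.9 and 73.4 CPM.

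Of the 6 genes tested against ISO, 0 passed at 100 nm, where 9.57% of all genes passed (3.88% higher and 5.69% lower), and 0 at 1 µm, where 7.39% passed (2.89% higher and 4.5% lower). Their median log2 fold change was 0.55 at 100 nm and 0.35 at 1 µm, beside -0.02 and -0.00 for all tested genes. The members' median was 0.25 and 0.07 without ISO replicate 2, and 0.42 and -0.06 with GC correction. With GC correction 1 and 2 of all genes passed instead of 1399 and 1081, and with no batch term 0 and 0.

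**Figure D2:**
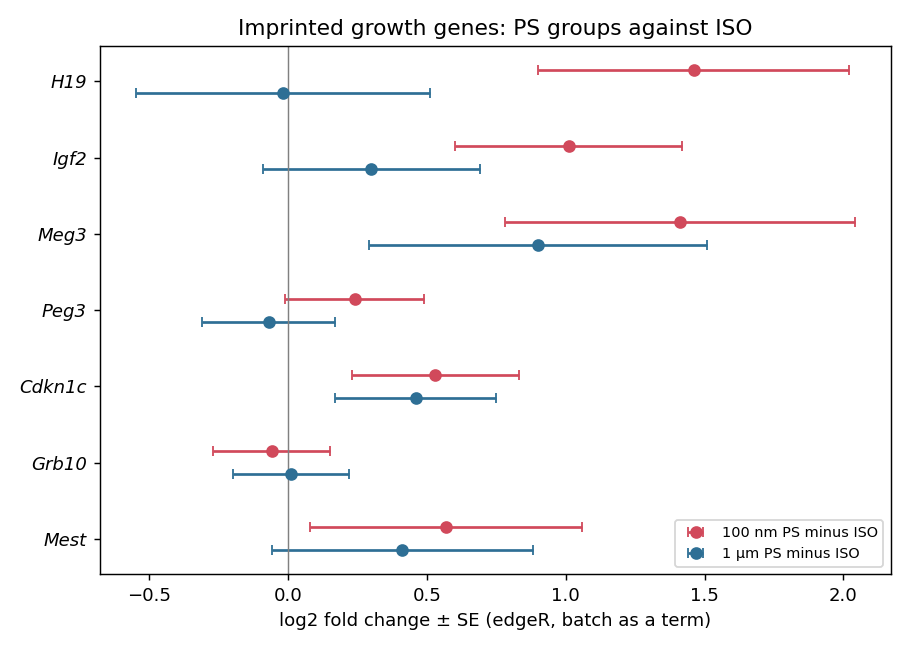
Log2 fold change (x axis) with SE bars for each gene, at 100 nm PS (red) and 1 µm PS (blue) against ISO, from the edgeR fit with batch as a term; the ISO libraries are shared by both. H19, Igf2 and Meg3 at 100 nm sit at 1.46, 1.01 and 1.41, and Grb10 sits at -0.06 and 0.01.

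Igf2 was the gene whose level followed H19 most closely among the 6. On log2 CPM centred on the batch mean, Pearson's r over 18 libraries was 0.85 and Spearman's rho 0.90, and r was 0.81 with group differences also taken out. Relations of H19 are given with no p, since the gene was chosen on these values. Without the 2 libraries farthest from the median of H19 (100 nm replicates 1 and 3) r was 0.80, within batch 1 0.85 and within batch 2 0.90. The ratio of H19 to Igf2 in CPM was 0.713 ± 0.299 with ISO, 0.761 ± 0.265 with 100 nm PS and 0.543 ± 0.205 with 1 µm PS (SD, n = 6), with the ranges overlapping.

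**Figure D3:**
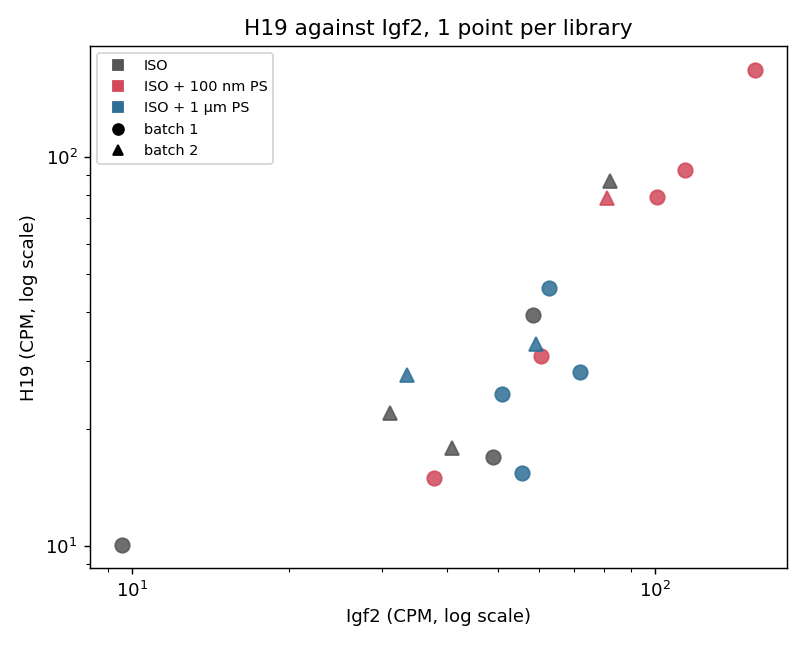
H19 against Igf2 in CPM, both on log scales, with 1 point per library coloured by group (circles batch 1, triangles batch 2). Libraries with more Igf2 had more H19 (r = 0.85 on batch-centred log2 CPM), from ISO replicate 2 at the lower left to 100 nm replicate 1 at the upper right.

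H19 and Meg3 had r 0.55 and rho 0.63, and r 0.44 with group differences taken out. Of the 15 pairs of genes without H19, 8 had a Pearson p under 0.05 and 2 a Spearman p under 0.05 (100000 permutations, two-sided, Benjamini-Hochberg over all 21 pairs). Meg3 and Peg3 had r 0.64 and rho 0.64 (adjusted permutation p 0.0103 and 0.031), with r 0.60 without the 2 libraries farthest from the median of Meg3 (ISO replicates 2 and 4), 0.67 within batch 1 and 0.55 within batch 2. Igf2 and Meg3 had r 0.82 and rho 0.69 (adjusted permutation p 0.00595 and 0.0214), with r 0.88 within batch 1 and 0.45 within batch 2, but r fell to 0.49 without 100 nm replicate 1 and ISO replicate 2. Without ISO replicate 2, 0 of these 15 pairs passed by Pearson's r, so the 8 calls depend on that library. Among the 8, r of Igf2 and Mest went from 0.68 to 0.08. That of Igf2 and Peg3 went from 0.70 to 0.56, and that of Meg3 and Peg3 from 0.64 to 0.48. The r of H19 and Igf2 was 0.92 without ISO replicate 2. In the pairs without H19, Grb10 passed with no other gene.

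**Figure D4:**
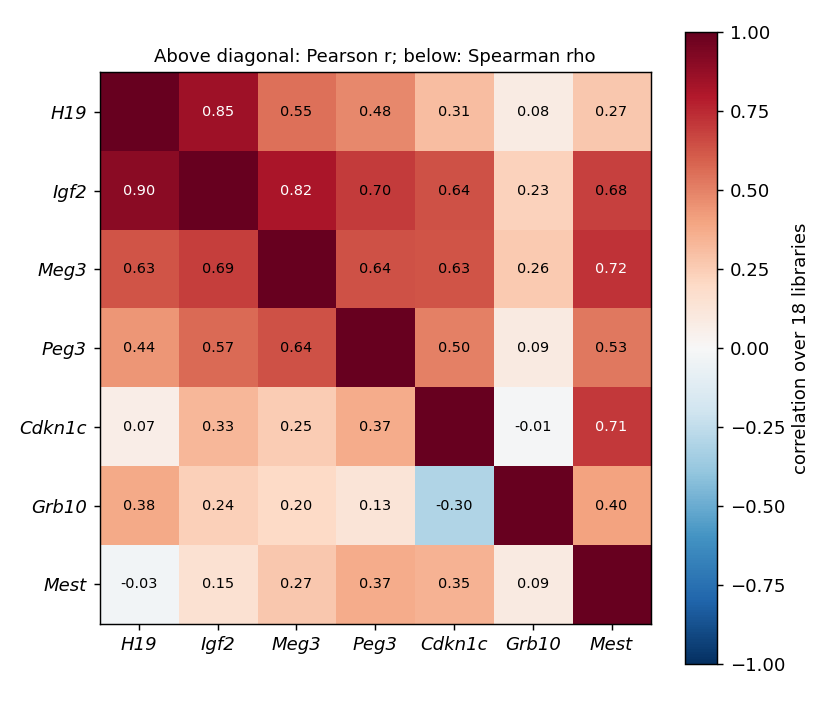
Correlation of batch-centred log2 CPM over 18 libraries for each pair of genes, with Pearson's r above the diagonal and Spearman's rho below it. H19 and Igf2 stand at 0.85 and 0.90, while H19 with Grb10 stands at 0.08 and 0.38.

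Libraries with more H19 had more transcripts of several other cell types of the heart. Relations of H19 and of Igf2 to 12 summed marker lists, 24 in all, were computed after values had been seen, and they are descriptions with no p. For H19 the list of 6 mesothelial and epicardial genes gave r 0.76 and rho 0.75, with r 0.71 without the 2 farthest libraries, 0.77 and 0.76 within batches 1 and 2, and 0.75 with group differences taken out. The cartilage and valve list gave r 0.75 and rho 0.75, and the fibroblast list r 0.75 and rho 0.63. With group differences taken out r was 0.71 and 0.75. It fell to 0.67 (without ISO replicate 2 and 100 nm replicate 4) and 0.57 (without ISO replicate 2 and 100 nm replicate 1), the farthest libraries. Comp had the highest mean of the cartilage and valve list, 22.4 CPM over all libraries, beside 4.43 for Acan and 3.79 for Sox9, so that sum mainly followed 1 gene. Endothelial markers gave r -0.22 and ventricular markers r -0.19. For Igf2 the same 3 lists gave r 0.77, 0.76 and 0.83, and 0.68, 0.62 and 0.60 without the 2 farthest libraries of each. In bulk tissue, more cells of a type and more RNA per cell cannot be told apart.

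The summed mesothelial and epicardial markers ran from 2.39 to 137 CPM with ISO (median 18.7), from 21.7 to 164 CPM with 100 nm PS (median 65) and from 11.4 to 89.7 CPM with 1 µm PS (median 49.1). Of the 6 markers 0 passed the test at either size against ISO. Of the 8 fibroblast markers 2 rose at 100 nm, beside 3.88% of all genes. They were Col1a1, a collagen chain (log2 fold change 1.86, adjusted p = 0.0289, edgeR), and Gsn, gelsolin (0.61, adjusted p = 0.0436, edgeR). The other 6 did not pass. Dcn was at -0.03, Dpt at 0.01, Lum at 0.08, Pdgfra at 0.19, Tcf21 at 0.65 and Mfap5 at 0.70. Of 3 tested cartilage and valve markers 1 rose at 100 nm, Comp, a cartilage matrix protein (3.06, adjusted p = 0.0196, edgeR), and 2 did not pass. At 1 µm 0 of either list passed. With GC correction 0 of all genes rose at 100 nm, so the calls of Col1a1, Gsn and Comp were lost. The ISO library with the most H19 (replicate 5, 86.7 CPM) had the highest mesothelial and epicardial sum of its group. The 100 nm library with the least H19 (replicate 5, 15 CPM) had the lowest such sum of its own. In the 1 µm group the library with the most H19 (replicate 2, 46.1 CPM) had a sum of 40 CPM. The highest sum there, 89.7 CPM, was in replicate 4, with 28.1 CPM of H19, and replicate 3 was lowest in both. The 100 nm library with the most H19 (replicate 1, 168 CPM) also held atrial and fat genes, with Myl4, an atrial myosin light chain, at 572 CPM, Myl7 at 351 CPM and Sln at 176 CPM, and a summed adipocyte level of 85.3 CPM where the next 100 nm library had 5.89 CPM. The part of these cells in the H19 difference was not tested; without 100 nm replicate 1 the size difference was -1.07.

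**Figure D5:**
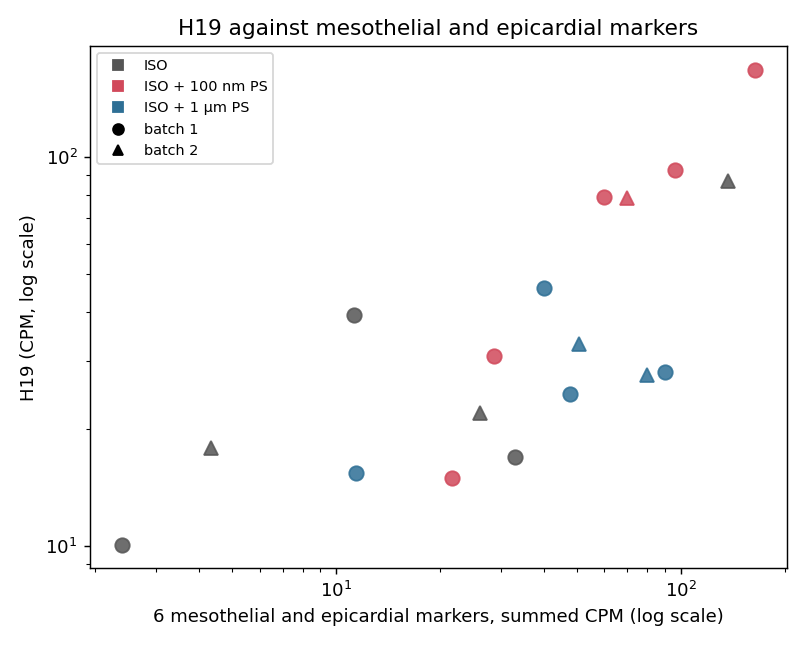
H19 in CPM against the summed CPM of 6 mesothelial and epicardial markers (Wt1, Upk3b, Msln, Lrrn4, Krt19, Upk1b), both on log scales, with 1 point per library coloured by group. Points rise together over the 18 libraries (r = 0.76 on batch-centred log2 values), and 100 nm replicate 1 and ISO replicate 5 have the highest marker sums, 164 and 137 CPM.

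Of 13249 genes with a mean of at least 1 CPM, the 10 whose batch-centred level was most like that of H19 over the 18 libraries were Ecrg4 (r 0.85), Ptgs1, the cyclooxygenase COX-1 (0.85), Myl7 (0.84), Slco2a1, a prostaglandin transporter (0.82), Tubb1, a platelet tubulin (0.82), Gpc3, a cell surface proteoglycan (0.82), Selp, P-selectin (0.82), Vwf, von Willebrand factor (0.81), Efemp1 (0.81) and Cilp2 (0.80). Without ISO replicate 2 these r ran from 0.76 to 0.85, and for the genes nearest the other 6 from 0.77 to 0.95. They were not computed without 100 nm replicate 1, the library with the most H19. That library held 351 CPM of Myl7 and 10.7 CPM of Tubb1, where the next highest libraries had 5.5 and 2.69 CPM. Vwf was at 87.1 CPM on average with ISO, 190 with 100 nm PS and 142 with 1 µm PS, and Ptgs1 at 14.1, 21.9 and 15.7 CPM. The genes nearest Igf2 were Ptgs1 (0.93), Plekha7 (0.91) and Clec11a (0.91), and nearest Meg3 were Smc1a, a cohesin subunit (0.98), Spaca6 (0.97) and Sbsn (0.97). Msantd2 and Atp1b3 were among the nearest to Peg3 (0.86 and 0.85), and H1f10, AU021092 and Cd300lg nearest Cdkn1c (0.92, 0.91 and 0.91). Gab1, Anapc1 and Arnt were nearest Grb10 (0.96, 0.96 and 0.95), and Anln, Actb and Chst15 nearest Mest (0.96, 0.95 and 0.94).

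Of a list of 52 other imprinted genes 40 were tested. At each size 0 rose and 1 fell, beside 3.88% higher and 5.69% lower of all genes at 100 nm and 2.89% and 4.5% at 1 µm, with a median log2 fold change of 0.08 at 100 nm and -0.01 at 1 µm. The gene that fell was Ube3a, a ubiquitin ligase imprinted in neurons. It ran from 44.6 through a median of 71.2 to 167 CPM with ISO, from 28.5 through 40.1 to 55.5 CPM with 100 nm PS and from 24.6 through 41 to 45.9 CPM with 1 µm PS. The fold changes of Ube3a were -1.17 (SE 0.24, adjusted p = 0.0117, edgeR) and -1.19 (SE 0.23, adjusted p = 0.0132, edgeR). GC correction ended both calls, with values for Ube3a of -0.76 and -0.67 (adjusted p = 0.0534 and 0.0945), and leaving out the batch term did so too (adjusted p = 0.0728 and 0.111). Without ISO replicate 1 they were -0.83 and -0.89 and still passed.

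On the IGF axis, of 22 genes 19 were tested, and 2 rose at 100 nm and 0 at 1 µm, where 3.88% and 2.89% of all genes did, with medians of 0.40 and 0.26. Igfbp4, a binding protein that holds IGFs, had a mean of 133 ± 36.3 CPM with ISO and 251 ± 66.4 CPM with 100 nm PS, and its fitted, batch-adjusted fold change was 0.86 (SE 0.22, adjusted p = 0.0266, edgeR). Htra3, a serine protease that cuts IGF binding proteins, was at 124 ± 18 and 183 ± 23.2 CPM, with a fitted fold change of 0.51 (SE 0.15, adjusted p = 0.045, edgeR). Neither passed with GC correction, where the values were 0.45 (adjusted p = 0.144) and -0.16 (adjusted p = 0.576), and leaving out 100 nm replicate 1, 2, 3 or 6 ended the Igfbp4 call (adjusted p 0.0527 to 0.0601). Htra3 lost its call when any of 12 libraries was left out (ISO replicates 1, 4 and 6, 100 nm replicates 1, 2, 3, 4 and 6 and 1 µm replicates 2, 3, 4 and 6), with an adjusted p of 0.0539 to 0.104. The receptors were Igf1r at 0.52 (adjusted p = 0.331, edgeR), Igf2r at 0.08 (adjusted p = 0.865) and Insr, the insulin receptor, at -0.55 (adjusted p = 0.147) at 100 nm. Igf1, the other ligand, was at 0.11 (adjusted p = 0.831) there.

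The list of relatives of Cdkn1c and Grb10 had 9 genes, of which 7 were tested and 0 passed at either size. The smallest p at 100 nm belonged to Cdkn2b, Grb14 and Cdkn2c, with log2 fold changes of 1.23, -0.20 and -0.17 (adjusted p = 0.329, 0.415 and 0.532, edgeR). At 1 µm they belonged to Cdkn2b, Grb2 and Cdkn1a, with 1.08, 0.23 and 0.45 (adjusted p = 0.364, 0.366 and 0.562). Of 10 proliferation genes, 9 were tested and 0 passed at either size, with medians of 0.01 and -0.03.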

How the data were processed

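Poly(A) RNA of 18 mouse hearts was sequenced by 2 providers, taken as the batches. Per the file headers and values, the deposited batch 1 table holds raw counts per gene (46548 entries) and the deposited batch 2 table estimated counts (57010 entries, 19.6% of nonzero values not whole at a tolerance of 1e-06), which were rounded. Per the submitters' processing notes the tools were HISAT2 2.0.5, featureCounts 1.5.0-p3, StringTie 1.3.3b, fastp and DESeq2, with no roles stated, on build GRCm39 (mm39). Strand handling was not given in the sources used, so Igf2 and Igf2os (at most 11 counts), Meg3 and Rtl1 (16) and Mest and Copg2 (930) cannot be told apart where they overlap. The tables were joined on 35560 genes, holding 98.9% to 99.5% of batch 1 counts, 85.2% to 87.4% in ISO and 93.1% to 95.8% in PS libraries of batch 2. Left out were 215 unnamed entries of batch 1, with 0.16% to 0.388% of its counts.

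Counts were fitted in R 4.3.3 with edgeR 4.0.16 (TMM, filterByExpr minimum count 10, robust quasi-likelihood test, group and batch, 14 residual degrees of freedom, Benjamini-Hochberg over 14623 genes, threshold 0.05), and the script was tested on simulated data. CPM values are scaled to TMM-adjusted library sizes, and 2 was the prior count of their log2. Transcript length and GC come from GENCODE M21. Alternatives were other scaling factors and filters, DESeq2 1.42.0, no batch term, single batches, the 2 groups alone, a replicate block, GC correction (a spline with 5 degrees of freedom) and leaving libraries out. The GC correction without ISO replicate 2, library sizes without mitochondrial genes and correlations without ISO replicate 2 were chosen after seeing the data. P-values measure the spread between libraries, 1 per numbered mouse.

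The 7 genes, the lists and the tests were chosen with earlier results of these data known. The genes named are the 7, the 10 nearest H19 and the 3 nearest each other gene by Pearson's r (mean of at least 1 CPM), and from 3 lists every gene that passed against ISO, or otherwise the 3 smallest p. One gene near Peg3 and one marker list are not reported here. The receptors, Igf1, the fibroblast markers, Comp, Acan, Sox9, Rian, Mirg, Dlk1 and Plagl1 were named after their values were seen.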

Additional observations from a re-analysis of the deposited data

Results flagged for a closer look

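In groups of 6 libraries, 57 were tested for a highest or lowest library far from the rest, and 6 were found; chance gives about 1 in 20. Among the 7 genes, Grb10 in the 1 µm group was far higher in replicate 5, at 115 CPM against 68.3 CPM in the next library. For marker sums, the mesothelial and epicardial markers in the ISO group reached 137 CPM in replicate 5, with 33 CPM next. Atrial myocyte markers in the 100 nm group reached 3449 CPM in replicate 1, with 912 CPM next, and adipocyte markers 85.3 CPM in the same library, with 5.89 CPM next. Ventricular myocyte markers in the 100 nm group reached 72501 CPM in replicate 6, with 41737 CPM next. That library is the only one of its group in batch 2, where ISO and 1 µm libraries held 65529 to 97129 CPM. Batch 1 libraries held 25574 to 60967 CPM, so this value is usual for its batch, which the screen left out of account. Skeletal muscle markers in the ISO group reached 130 CPM in replicate 2, with 8.02 CPM next.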

How the results depend on the processing

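Of the 6 genes tested against ISO, none passed in any setting run except Cdkn1c at 100 nm in batch 1 alone (1 gene called, log2 fold change 1.04). H19 differed between the sizes by -1.74 to -1.07 over the leave-one-out fits, and by -1.50 to -1.40 over the other settings. The number of genes called at 100 nm and at 1 µm was 1399 and 1081; it was 717 and 481 with no low-count filter, 2607 and 2322 with DESeq2, 0 and 0 with no batch term, 7 and 11 in batch 2 alone, 598 at 1 µm in batch 1 alone, 364 and 0 with only the groups compared, 606 at 100 nm without ISO replicates 1 and 2, 1 and 2 with GC correction, 0 and 3 with that correction and no ISO replicate 2, and 170 (without 100 nm replicate 6) to 2283 (without ISO replicate 3) and 265 (without 1 µm replicate 1) to 2334 (without ISO replicate 3) with 1 library left out. At an unadjusted p under 0.05 the settings with 0 calls had 2759 and 2357 genes (no batch term), 2701 (1 µm and ISO alone) and 2419 (100 nm, GC correction and no ISO replicate 2). The causes were not tested.

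Same-numbered libraries did not deviate together. Of 18 pairs 3 had a correlation over 0.1, and the range was -0.44 to 0.23. Of 18 libraries 0 correlated best with their own number. The deviations gave no sign that the numbers pair the mice, but they cannot exclude a pairing that leaves no trace in expression. With the replicate number as a block, 0 genes were called at 100 nm and 0 at 1 µm (2822 and 2875 at an unadjusted p under 0.05, edgeR), and the fold change of Grb10 at 100 nm was 0.01.

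Signs changed as follows, in fold changes that did not pass on either side unless stated. H19 at 1 µm, not tested, was at -0.02 in all libraries, 0.35 in batch 1 alone, 0.33 with the replicate block and -0.25 to 0.45 over the leave-one-out fits. At 100 nm, batch 2 alone gave -0.20 for Peg3, -0.46 for Cdkn1c and 0.21 for Grb10; GC correction gave -0.06 for Cdkn1c and -0.16 for Htra3, which had passed, and without ISO replicate 2 as well -0.23 and -0.02; without ISO replicates 1 and 2 Grb10 was at 0.09, and over the leave-one-out fits at -0.20 to 0.22. At 1 µm, batch 2 alone gave -0.16 for Igf2, -0.17 for Meg3 and -0.20 for Cdkn1c; batch 1 alone gave 0.14 for Peg3 and -0.37 for Grb10; no batch term gave 0.05 for Peg3; without ISO replicates 1 and 2 Igf2 was at -0.06. GC correction at 1 µm gave -0.06 for Igf2, -0.09 for Cdkn1c and -0.06 for Grb10, and without ISO replicate 2 as well -0.30, -0.23 and -0.10. Grb10 at 1 µm was at -0.01 with RLE factors, upper-quartile factors and DESeq2, -0.00 with the stricter filter, -0.06 with the 2 groups alone and -0.02 with library sizes without mitochondrial genes. Over the leave-one-out fits Peg3 at 1 µm ran from -0.23 to 0.07 and Grb10 from -0.20 to 0.25. Of the 15 pairs of genes without H19, 8 had an adjusted permutation p of Pearson's r under 0.05 in all libraries and 0 without ISO replicate 2. Of 14 settings other than leaving out 1 library, 5 ended the call of Ube3a at 100 nm, 7 that at 1 µm, 7 that of Igfbp4 and 12 that of Htra3. Counts of H19 ran from 131 to 3591 per library, and Meg3 had a library at 0.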

Other observations

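The neighbours of Meg3 in the Dlk1-Dio3 cluster did not pass the test either. Rian, a noncoding RNA of that cluster, was at 7.1 ± 2.16 CPM with ISO, 13.6 ± 3.3 with 100 nm PS and 9.21 ± 3.18 with 1 µm PS (SD, n = 6), with log2 fold changes of 0.84 (SE 0.30, adjusted p = 0.0741, edgeR) and 0.30 (SE 0.29, adjusted p = 0.531, edgeR). The 100 nm libraries held 9.46 to 18.6 CPM of Rian and the ISO libraries 3.94 to 9.41 CPM, so every 100 nm library was above every ISO library, as for 1.63% of tested genes. Mirg, a further noncoding RNA there, had log2 fold changes of 0.81 and 0.82 (SE 0.64 and 0.63) at a mean below 1 CPM, and Dlk1, too low to be tested, was at 0.168, 0.152 and 0.251 CPM in the 3 groups. Plagl1, an imprinted zinc finger factor, was at 4.18 ± 3.61, 7.39 ± 3.98 and 4.82 ± 1.99 CPM, with fold changes of 0.49 (SE 0.61) and -0.00 (SE 0.59). These genes were named after their values had been seen.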
